A study of Mus musculus with 6 samples.

Results

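Pramel and Tdpoz are 2 multicopy gene families of the mouse germline and early embryo, and 37 of the 41345 probesets on the arrays carried exactly 1 gene symbol that begins with either name followed by a digit. They stand for 35 genes: 30 probesets for 29 Pramel genes and 7 probesets for 6 Tdpoz genes, with 2 probesets each for Pramel34 and Tdpoz2. All values come from 6 Mouse Gene 2.0 ST arrays of blastocysts of let7g-transgenic mice, so the comparison group carries the transgene too. The 3 groups hold 2 arrays each. D4-act-7g embryos were activated on day 4, Dor-7g embryos were dormant in vivo on day 7, and DOX-7g embryos were dormant on day 7 after let-7 had been induced with DOX in vitro. Per the labels, RNA came from 10 blastocysts of a group, released by heat. They do not give the promoter that drives the transgene, the age of the mice, or whether replicates 1 and 2 are separate pools of embryos, so every p-value below measures only the spread between these arrays. DOX-7g differs from D4-act-7g in day, dormancy, culture, DOX and let-7 together, and Dor-7g differs from it in day and dormancy together. DOX-7g differs from Dor-7g in culture, DOX and let-7 together. Within each comparison these cannot be told apart. In RNA of pooled embryos, fewer expressing cells and less RNA per cell cannot be told apart either.

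Pramel genes encode leucine-rich repeat proteins related to human PRAME, an antigen of testis and tumours. Several family members act as substrate-binding parts of cullin ubiquitin ligases, and Pramel7 in the inner cell mass promotes the breakdown of Uhrf1, a protein that maintains DNA methylation. Tdpoz genes encode proteins with a TRAF-like (MATH) domain and a POZ (BTB) domain, related to the cullin-3 adaptor Spop, and their transcripts are known from oocytes and early cleavage embryos. Both families lie in tandem clusters of near-identical copies, so which copy a probeset measured is uncertain throughout.

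The 4 Pramel promoters shown first belong to the genes that were higher in DOX-7g than in either other group. Each run is the 250 bases before the annotated gene start in RefSeq (GRCm38.p6), 5′ to 3′, with CCAAT or TATAAA on either strand in capitals. The windows are chr4:143951017-143951266 (minus strand) for Pramel16, chr4:101844023-101844272 (minus strand) for Pramel17, chr4:101940157-101940406 (plus strand) for Pramel19 and chr4:143567217-143567466 (plus strand) for Pramel20.
Pramel16: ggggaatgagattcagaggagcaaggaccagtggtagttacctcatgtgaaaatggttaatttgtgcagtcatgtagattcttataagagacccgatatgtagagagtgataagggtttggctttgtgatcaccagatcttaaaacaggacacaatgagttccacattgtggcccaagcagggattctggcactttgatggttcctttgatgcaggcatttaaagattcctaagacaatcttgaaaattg
Pramel17: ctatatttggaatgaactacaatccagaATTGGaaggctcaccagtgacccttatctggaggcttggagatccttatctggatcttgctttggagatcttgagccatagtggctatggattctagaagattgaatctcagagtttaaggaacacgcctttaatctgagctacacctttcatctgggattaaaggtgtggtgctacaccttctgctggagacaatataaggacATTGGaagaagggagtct
Pramel19: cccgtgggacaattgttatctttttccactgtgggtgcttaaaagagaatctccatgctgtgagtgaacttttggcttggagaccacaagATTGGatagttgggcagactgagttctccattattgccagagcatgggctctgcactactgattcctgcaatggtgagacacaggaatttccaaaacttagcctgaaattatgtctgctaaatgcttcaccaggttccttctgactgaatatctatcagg
Pramel20: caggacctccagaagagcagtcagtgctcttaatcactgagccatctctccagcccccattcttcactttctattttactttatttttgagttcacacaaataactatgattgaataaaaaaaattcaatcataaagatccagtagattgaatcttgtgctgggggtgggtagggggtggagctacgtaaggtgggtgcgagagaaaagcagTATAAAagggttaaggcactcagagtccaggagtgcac
Pramel17 and Pramel19 hold CCAAT on the reverse strand, Pramel20 holds TATAAA 38 bases before the start, and Pramel16 holds none of the 5 motifs searched, so no searched motif is common to the 4 windows.

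The next 4 windows show how alike the upstream sequences of named copies can be. Pramel33 (chr5:93536332-93536581 (minus strand)) and Pramel35 (chr5:93794374-93794623 (plus strand)) are identical at 249 of 250 positions, with the single difference A108C (Pramel33 base first, counted from 1 at the 5′ end) in capitals. Pramel14 (chr4:143994370-143994619 (minus strand)) and Pramel30 (chr4:144329999-144330248 (plus strand)) are identical at 244 of 251 aligned columns, with the 5 mismatches and 2 unpaired bases in capitals.
Pramel33: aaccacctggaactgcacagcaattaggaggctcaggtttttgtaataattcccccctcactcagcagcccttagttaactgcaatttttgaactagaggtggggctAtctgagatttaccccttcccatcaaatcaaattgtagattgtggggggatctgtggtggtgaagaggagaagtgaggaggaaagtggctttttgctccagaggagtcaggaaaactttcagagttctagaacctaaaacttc
Pramel35: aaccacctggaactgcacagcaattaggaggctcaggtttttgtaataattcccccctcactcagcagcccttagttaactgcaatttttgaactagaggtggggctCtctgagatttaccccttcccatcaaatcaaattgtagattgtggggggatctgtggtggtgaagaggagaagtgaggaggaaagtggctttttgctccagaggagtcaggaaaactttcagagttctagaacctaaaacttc
Pramel14: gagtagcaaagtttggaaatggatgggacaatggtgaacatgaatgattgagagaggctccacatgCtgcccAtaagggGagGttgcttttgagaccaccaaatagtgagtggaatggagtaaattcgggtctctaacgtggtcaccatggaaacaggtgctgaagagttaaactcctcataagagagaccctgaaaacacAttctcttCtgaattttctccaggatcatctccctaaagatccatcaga
Pramel30: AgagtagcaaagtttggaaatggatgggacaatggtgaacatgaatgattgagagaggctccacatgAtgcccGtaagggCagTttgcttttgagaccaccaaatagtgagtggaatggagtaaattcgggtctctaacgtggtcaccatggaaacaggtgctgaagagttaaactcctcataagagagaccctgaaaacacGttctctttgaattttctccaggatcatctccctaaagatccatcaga
Pramel33 is shown because its probeset fell in Dor-7g. That of Pramel35 was dim on all 6 arrays and gives no change to set beside it, and both symbols also occur together on probesets with several symbols. Pramel14 and Pramel30 were each above the median on DOX-7g replicate 2 alone.

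Tdpoz8 (chr3:93068573-93068822 (plus strand)) and Tdpoz9 (chr3:94054886-94055135 (minus strand)), the Tdpoz genes whose probesets rose in DOX-7g against D4-act-7g, are identical at 213 of 257 aligned columns, with differing and unpaired bases in capitals.
Tdpoz8: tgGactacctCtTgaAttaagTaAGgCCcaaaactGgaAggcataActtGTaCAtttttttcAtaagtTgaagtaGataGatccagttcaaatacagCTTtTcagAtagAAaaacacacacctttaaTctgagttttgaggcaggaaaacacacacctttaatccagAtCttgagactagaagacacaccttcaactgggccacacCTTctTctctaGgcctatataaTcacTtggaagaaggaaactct
Tdpoz9: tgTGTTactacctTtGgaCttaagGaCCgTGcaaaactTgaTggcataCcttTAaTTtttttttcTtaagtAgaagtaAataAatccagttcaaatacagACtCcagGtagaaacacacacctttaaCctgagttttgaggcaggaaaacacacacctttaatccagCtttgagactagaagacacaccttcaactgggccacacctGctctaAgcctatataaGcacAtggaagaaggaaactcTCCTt
The table lists a second start for Tdpoz8, not shown, whose window is identical to that of Tdpoz9 at 129 of 287 aligned columns (44.9%) and to that of Tdpoz4, which was not tested, at 234 of 257 (91.1%). Tdpoz1 was tested and called in no comparison. Its window is identical to that of Tdpoz9 at 222 of 278 aligned columns (79.9%) and to the Tdpoz8 window shown at 195 of 282 (69.1%).
For the motif counts, windows were available for 29 of the 35 genes, 30 in all. TATAAA stood in 16.7% of them and CCAAT in 33.3%, against 12.4% and 33.8% of all 32851 windows of that length in the table. GGGCGG stood in 3.33% of the family windows, that of Pramel1 alone, against 32.7% of all windows. TGCACAC, found in 3.67% of all windows, and the Dux motif, found in 0.0304%, did not occur in these 30. Both strands were searched and none of the 5 motifs contains another. Over the 435 pairs of family windows the median identity was 46.6%, and 5 pairs were above 80%. No windows of other genes were aligned as a baseline, so identities near that median give no measure of relatedness.

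Levels are deposited log2 values. A level below the array's median over all probesets (4.62 to 4.87) is called dim here, since no detection calls were used, and differences against a dim group may be understated. Dor-7g replicate 1 stood apart, with the highest median and the lowest correlations (Pearson's r over all probesets, a description) of 0.899 to 0.919 with each other array. The replicates of D4-act-7g gave 0.978 and those of DOX-7g 0.969. Of 9 measured trophectoderm markers 7, and of 10 inner cell mass markers 6, were at or above the median on all 6 arrays. Of 14 oocyte markers 7 were above it on all arrays and 4 below it on all, with mean levels of 5.01 to 5.25 in DOX-7g, 5.09 to 5.32 in Dor-7g and 5.33 to 5.47 in D4-act-7g.

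**Figure D1:**
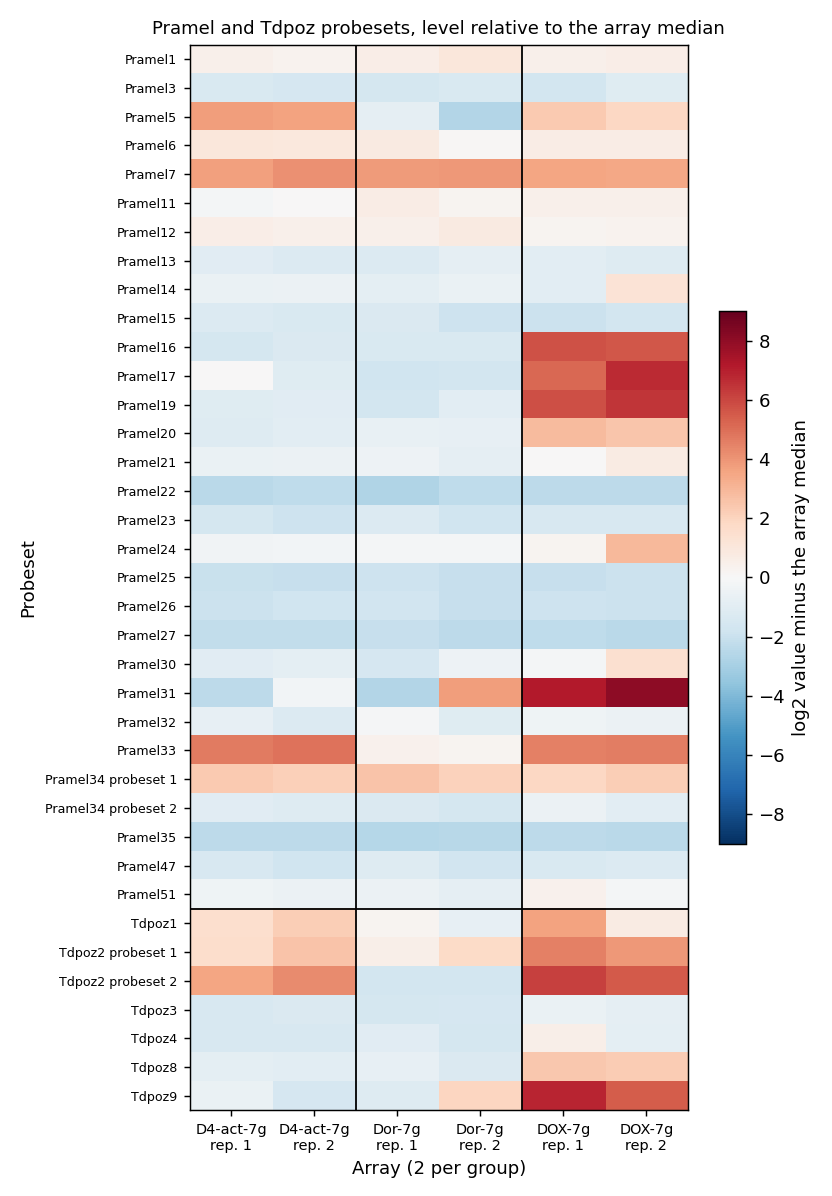
Level of each of the 37 probesets on each array, as the log2 value minus the array median (colour scale), with groups parted by vertical lines and Pramel (above) from Tdpoz (below) by a horizontal line. A few probesets are high in DOX-7g, Pramel5, Pramel33 and Tdpoz2 probeset 2 lose their high level in Dor-7g, and 13 probesets are below the median everywhere.

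Of the 37 probesets, 20 reached the array median on at least 2 arrays and were tested with limma among 14740 probesets, and 17 did not and were not tested. In DOX-7g against D4-act-7g, 6 rose and none fell (limma, adjusted p below 0.05), where 0.733% of all tested probesets rose and 0.244% fell. The median difference over all 37, of which 17 were not tested, was 0.35 log2 units, and over all tested probesets it was -0.05. These medians cover unlike sets, as do those for the other comparisons, so they do not measure a shift of the family. In Dor-7g against D4-act-7g, 3 fell and none rose, where 0.753% of all tested probesets fell and 0.251% rose, and the median over all 37 was 0.10, against 0.06. In DOX-7g against Dor-7g, 7 were higher and none lower, where 1.07% of all tested probesets were higher and 0.122% lower, and the median over all 37 was 0.66, against -0.11. Over both directions, 0.977%, 1.00% and 1.19% of tested probesets were called in the 3 comparisons. In DOX-7g against D4-act-7g, both DOX-7g arrays lay above both D4-act-7g arrays for 13 of the 20 tested family probesets and below them for 5, where this held for 19.3% and 30.3% of all tested probesets. In Dor-7g against D4-act-7g it held for 5 and 5, beside 24.3% and 21.5%, and in DOX-7g against Dor-7g for 14 and 3, beside 15.1% and 26.7%. Over all 37, with the untested included, the counts were 21 and 8, 8 and 5, and 18 and 3. No share over all probesets was counted beside these, and the shares above cover tested probesets only. Pramel16, Pramel19, Pramel20 and Tdpoz8, which were called, and Pramel21 and Pramel24, which were not, passed the filter through the DOX-7g arrays alone. Pramel17, Tdpoz9 and Pramel31 reached the median on 3 arrays, 2 of them DOX-7g, and would not have passed without DOX-7g. All 6 probesets that rose in DOX-7g against D4-act-7g thus entered through the group where they were high. The DOX-7g counts are therefore not independent of the filter and are no support by themselves. With every single-symbol probeset tested, so that all 37 entered, the calls were 5, 3 and 7. The share of all probesets called in that setting is not given here.

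Pramel16, Pramel17, Pramel19, Pramel20 and Tdpoz8 were higher in DOX-7g than in both other groups and were not called between Dor-7g and D4-act-7g. Pramel16 read 10.34 and 10.26 on DOX-7g replicates 1 and 2, 3.48 and 3.30 in Dor-7g, and 3.07 and 3.33 in D4-act-7g. It was dim on all 4 arrays outside DOX-7g, and the DOX-7g arrays lay apart from every other array. The change against D4-act-7g was 7.11 ± 0.19 log2 units (SE; 138-fold; limma, adjusted p = 1.6e-04), and that against Dor-7g 6.91 ± 0.19 (limma, adjusted p = 8.0e-05).

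Pramel19 read 10.43 and 11.10 in DOX-7g, 3.25 and 3.69 in Dor-7g, and 3.55 and 3.63 in D4-act-7g. Again the groups other than DOX-7g were dim and did not part from each other. Its change against D4-act-7g was 7.17 ± 0.29 (144-fold; limma, adjusted p = 3.4e-04), and against Dor-7g 7.29 ± 0.29 (limma, adjusted p = 3.2e-04). Pramel17, the family member nearest to Pramel19 on chromosome 4, read 9.80 and 11.38 in DOX-7g, 3.09 and 3.0 in Dor-7g, and 4.68 and 3.55 in D4-act-7g. The DOX-7g arrays were the highest, D4-act-7g replicate 1 was just above its array median, and both Dor-7g arrays were dim. The change against D4-act-7g was 6.47 ± 0.60 (limma, adjusted p = 0.0125) and that against Dor-7g 7.55 ± 0.60 (limma, adjusted p = 0.00543). Without D4-act-7g replicate 2 the first of these was 5.91 and no longer passed (limma, adjusted p = 0.0833).

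Pramel20 read 7.46 and 7.16 in DOX-7g, against 4.23 and 3.91 in Dor-7g and 3.47 and 3.67 in D4-act-7g. All 4 other arrays were dim, and no group overlapped another. Its change against D4-act-7g was 3.74 ± 0.21 (13.4-fold; limma, adjusted p = 0.00169), that against Dor-7g 3.24 ± 0.21 (limma, adjusted p = 0.00288), and the Dor-7g difference from D4-act-7g of 0.50 ± 0.21 was not called (limma, adjusted p = 0.371).

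Tdpoz8 read 7.02 and 6.95 in DOX-7g, 4.12 and 3.36 in Dor-7g, and 3.74 and 3.68 in D4-act-7g. Outside DOX-7g it was dim on every array. The change against D4-act-7g was 3.28 ± 0.28 (9.68-fold; limma, adjusted p = 0.00852) and that against Dor-7g 3.24 ± 0.28 (limma, adjusted p = 0.00736). Both calls depended on having both DOX-7g arrays: without replicate 1 or 2 the change against D4-act-7g was 3.24 or 3.31 (limma, adjusted p = 0.0737 and 0.0808). Leaving out D4-act-7g replicate 1 or 2 also ended that call, at 3.30 and 3.25 (limma, adjusted p = 0.0861 and 0.0929).

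**Figure D2:**
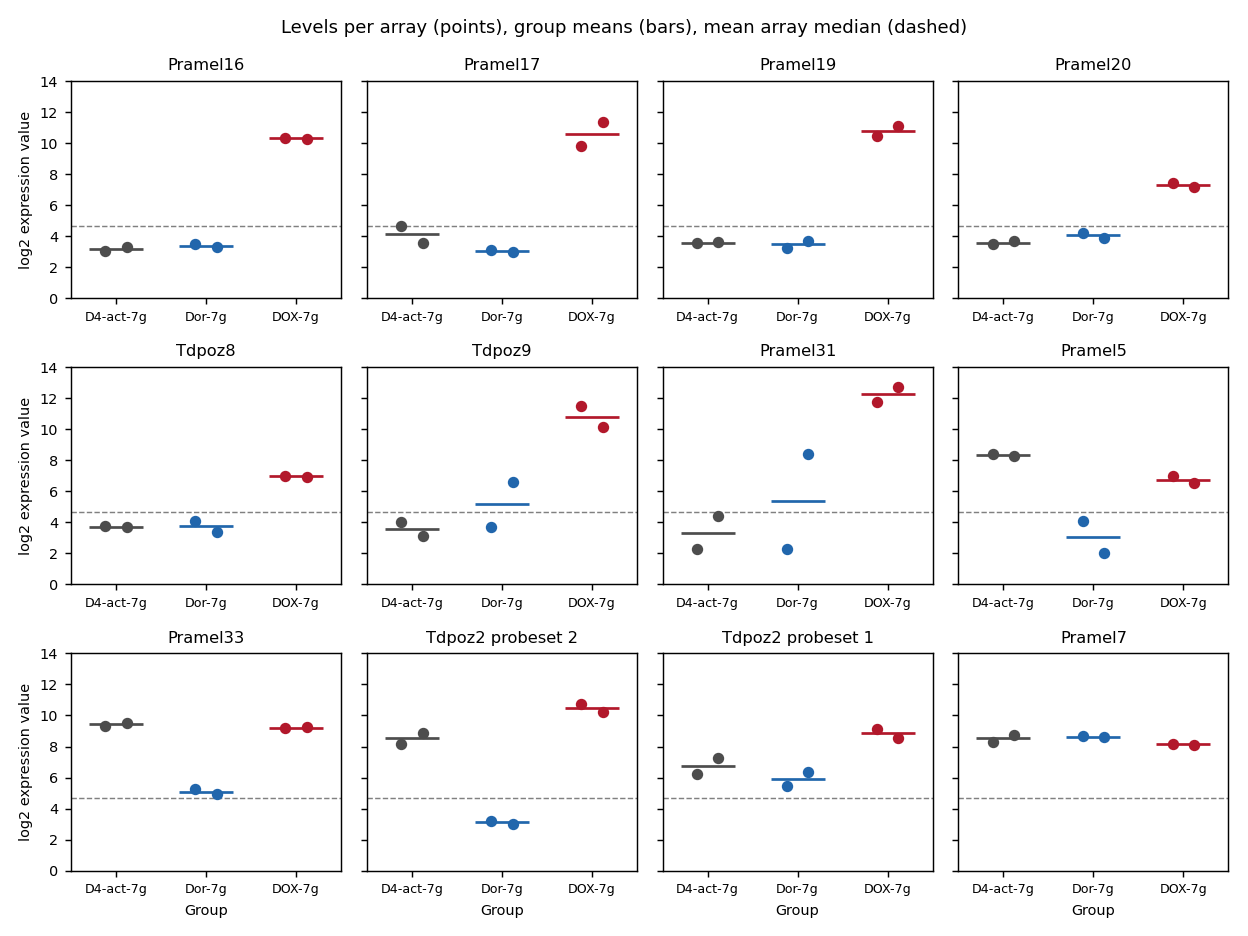
Log2 level on each array (points), group means (bars) and the mean of the 6 array medians (dashed line) for 12 probesets in the 3 groups of 2 arrays. Pramel16, Pramel17, Pramel19, Pramel20 and Tdpoz8 are high in DOX-7g, whereas Pramel5, Pramel33 and Tdpoz2 probeset 2 are low in Dor-7g.

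Tdpoz9 and Pramel31 were high in DOX-7g as well, but their Dor-7g arrays disagreed. Tdpoz9 read 11.47 and 10.14 in DOX-7g, 3.69 and 6.62 in Dor-7g, and 4.05 and 3.14 in D4-act-7g. Dor-7g replicate 2 was above the array median and replicate 1 below it. Tdpoz9 rose against D4-act-7g by 7.21 ± 1.00 (148-fold; limma, adjusted p = 0.0453), a call lost without any 1 of the 4 DOX-7g and D4-act-7g arrays (changes of 6.54 to 7.87) and with every single-symbol probeset tested (limma, adjusted p = 0.0522). Between DOX-7g and Dor-7g the difference, 5.65 ± 1.00, was not called (limma, adjusted p = 0.092), and without Dor-7g replicate 2 it was 7.11 (limma, adjusted p = 0.0079).

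Pramel31 differed by 8.94 ± 1.94 between DOX-7g and D4-act-7g, where it was dim, and did not pass (limma, adjusted p = 0.156). Its levels were 11.79 and 12.72 in DOX-7g, 2.26 and 8.43 in Dor-7g, and 2.26 and 4.38 in D4-act-7g. Both DOX-7g arrays were above all others, while the Dor-7g arrays were 6.17 apart, the widest gap within a group for any of the 37 probesets. Without either Dor-7g array, which serve here only to estimate the spread, the same 8.94 passed (limma, adjusted p = 0.0149). Both Tdpoz9 and Pramel31 were thus higher on Dor-7g replicate 2 than on replicate 1, whereas Pramel16, Pramel17, Pramel19, Pramel20 and Tdpoz8 were dim on both.

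The 3 probesets that fell in Dor-7g against D4-act-7g were Pramel33, Tdpoz2 probeset 2 and Pramel5. Pramel33 read 5.29 and 4.91 in Dor-7g, against 9.31 and 9.53 in D4-act-7g and 9.18 and 9.25 in DOX-7g. Dor-7g lay below both other groups without overlap, and DOX-7g stayed within 0.21 of D4-act-7g on average. The fall was by 4.32 ± 0.21 (20.0-fold; limma, adjusted p = 0.00272), and DOX-7g was higher than Dor-7g by 4.12 ± 0.21 (limma, adjusted p = 8.5e-04). The DOX-7g difference from D4-act-7g, -0.21 ± 0.21, was not called (limma, adjusted p = 0.866).

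Tdpoz2 probeset 2 gave 3.23 and 2.99 in Dor-7g, 8.19 and 8.88 in D4-act-7g, and 10.75 and 10.21 in DOX-7g. It was dim in Dor-7g and above the median on the other 4 arrays, with no overlap between any 2 groups. The fall in Dor-7g was by 5.43 ± 0.31 (43.1-fold; limma, adjusted p = 0.00397), and DOX-7g was higher than Dor-7g by 7.37 ± 0.31 (166-fold; limma, adjusted p = 4.0e-04). The DOX-7g difference from D4-act-7g of 1.94 ± 0.31 was not called (limma, adjusted p = 0.0724). Tdpoz2 probeset 1 gave 5.43 and 6.38 in Dor-7g, 6.21 and 7.23 in D4-act-7g, and 9.14 and 8.54 in DOX-7g. It was above the median on all 6 arrays, and its Dor-7g and D4-act-7g arrays overlapped. Its Dor-7g difference from D4-act-7g was -0.82 ± 0.47 (limma, adjusted p = 0.49) and its DOX-7g difference 2.12 ± 0.47 (limma, adjusted p = 0.163), neither called, so the 2 probesets of this gene gave different results for Dor-7g.

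Pramel5 read 4.07 and 2.05 in Dor-7g, 8.41 and 8.28 in D4-act-7g, and 6.97 and 6.54 in DOX-7g. The 3 groups did not overlap, with DOX-7g between the others and Dor-7g dim. The fall in Dor-7g was by 5.28 ± 0.63 (38.8-fold; limma, adjusted p = 0.0297), and it no longer passed without either DOX-7g array (-5.28; limma, adjusted p = 0.0833) or without D4-act-7g replicate 1 or 2 (-5.21 and -5.35; limma, adjusted p = 0.21 and 0.184). DOX-7g differed from D4-act-7g by -1.59 ± 0.63 (limma, adjusted p = 0.447) and from Dor-7g by 3.69 ± 0.63 (limma, adjusted p = 0.0833). Without Dor-7g replicate 1 or 2 the latter was 4.70 and 2.68 and passed (limma, adjusted p = 0.00404 and 0.00731), and so did the -1.59 between DOX-7g and D4-act-7g (limma, adjusted p = 0.0387).

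**Figure D3:**
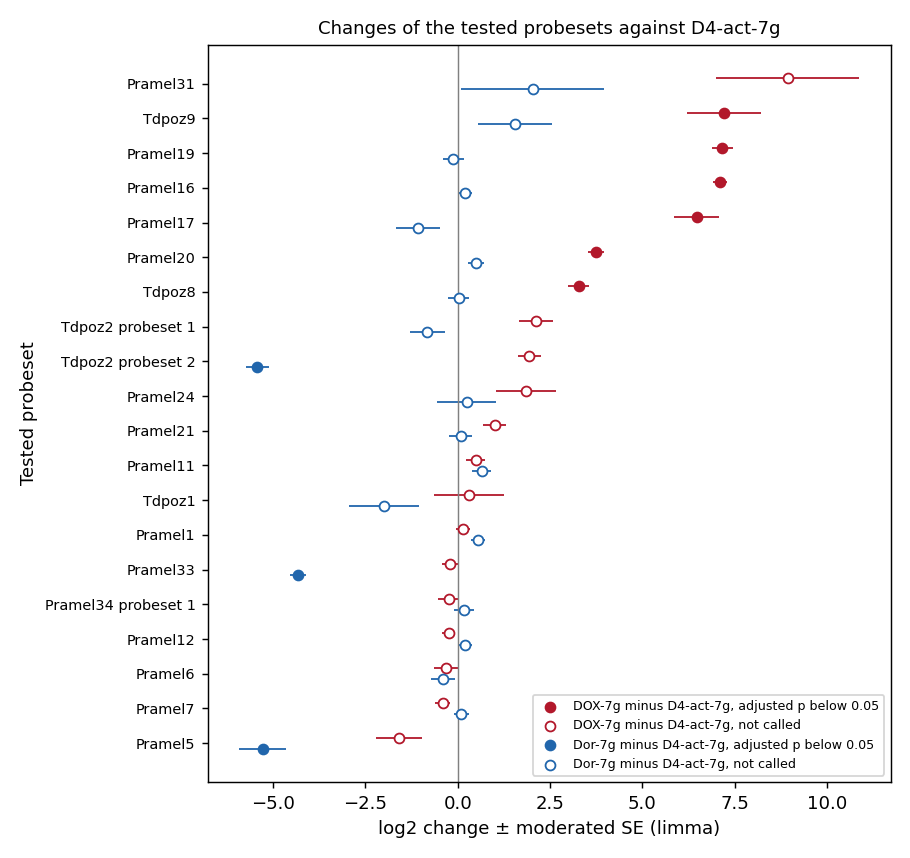
Log2 change ± limma's moderated SE of the 20 tested probesets in DOX-7g (red) and Dor-7g (blue) against the shared D4-act-7g arrays, with filled points for adjusted p below 0.05. The 6 filled red points lie at 3.28 to 7.21, the 3 filled blue points at -5.43 to -4.32, and no probeset is filled in both colours.

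Oog1, an oocyte gene of the PRAME superfamily that lies outside the naming rule, read 3.22 and 2.25 in Dor-7g, 5.10 and 6.29 in D4-act-7g, and 7.78 and 6.73 in DOX-7g. It was dim in Dor-7g and above the median elsewhere. It was higher in DOX-7g than in Dor-7g by 4.52 ± 0.57 (limma, adjusted p = 0.0296), and its -2.96 ± 0.57 in Dor-7g against D4-act-7g was not called (limma, adjusted p = 0.0967). Oog2 differed by -0.09 and 0.19 in DOX-7g and Dor-7g against D4-act-7g, with neither called.

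Pramel7, known from the inner cell mass, was above the array median in every group. It read 8.15 and 8.11 in DOX-7g, 8.69 and 8.59 in Dor-7g, and 8.31 and 8.77 in D4-act-7g. Its differences from D4-act-7g were -0.41 ± 0.21 in DOX-7g (limma, adjusted p = 0.598) and 0.10 ± 0.21 in Dor-7g (limma, adjusted p = 0.852). Pramel6, its neighbour on chromosome 2, read 5.29 and 5.34 in DOX-7g, 5.71 and 4.75 in Dor-7g, and 5.67 and 5.59 in D4-act-7g, with differences of -0.31 ± 0.33 and -0.40 ± 0.33 that were not called (limma, adjusted p = 0.873 and 0.612). The RNA of Uhrf1, whose protein Pramel7 acts on, read 5.92 and 5.80 in DOX-7g, 6.35 and 5.70 in Dor-7g, and 6.02 and 5.97 in D4-act-7g. Its differences from D4-act-7g were -0.13 ± 0.25 in DOX-7g (limma, adjusted p = 0.954) and 0.03 ± 0.25 in Dor-7g (limma, adjusted p = 0.964). Uhrf1 protein was not measured, so these values do not show whether its breakdown changed. Of the 9 genes in the list of Uhrf1, Dnmt and Tet genes, none passed in any comparison (limma), with 2, 0 and 1 at an unadjusted p below 0.05 in DOX-7g versus D4-act-7g, Dor-7g versus D4-act-7g and DOX-7g versus Dor-7g.

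Pramel1, Pramel12 and Pramel34 probeset 1 were above the median on all 6 arrays like Pramel6 and Pramel7, and Pramel11 on 5. Their levels stayed within narrow ranges of 4.99 to 5.72 for Pramel1, 4.86 to 5.45 for Pramel12, 6.47 to 7.41 for Pramel34 probeset 1 and 4.48 to 5.55 for Pramel11. None was called in any comparison, and the largest difference among them was the 0.65 ± 0.26 of Pramel11 in Dor-7g against D4-act-7g (limma, adjusted p = 0.337), which passed without Dor-7g replicate 2. The second Pramel34 probeset was dim on all 6 arrays, at 3.07 to 4.08. Probesets that carry Pramel34 together with other symbols were higher in DOX-7g, as given with the gene order below.

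Several other members stood much higher on 1 DOX-7g array than on the other. Pramel24 read 4.87 and 7.55 in DOX-7g, 4.72 and 4.49 in Dor-7g, and 4.34 and 4.40 in D4-act-7g, a difference of 1.84 ± 0.81 from D4-act-7g (limma, adjusted p = 0.5) that passed without DOX-7g replicate 1. Pramel14 read 3.65 and 5.92 in DOX-7g, and 3.99 to 4.11 on the other 4 arrays. Pramel30 read 4.42 and 6.09 in DOX-7g, and 3.37 to 4.20 elsewhere. In these 3 it was DOX-7g replicate 2 that stood out, and Pramel14 and Pramel30 were not tested because they reached the median on that array alone. For Pramel24 and Pramel30, DOX-7g replicate 1 also lay above the other 4 arrays, by a small margin.

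Tdpoz1 went the other way between the arrays, with 8.24 and 5.43 in DOX-7g, 5.14 and 3.93 in Dor-7g, and 6.17 and 6.88 in D4-act-7g. Its D4-act-7g arrays lay between the 2 DOX-7g arrays, and its difference of 0.31 ± 0.94 was not called (limma, adjusted p = 0.98). Tdpoz4 read 5.15 and 3.76 in DOX-7g, and 3.08 to 3.86 elsewhere, and Pramel51 5.02 and 4.45, and 3.84 to 4.32 elsewhere. Both reached the array median on DOX-7g replicate 1 alone and were not tested. For Pramel51, DOX-7g replicate 2 also lay above all arrays of the other groups. In all, the DOX-7g arrays differed by more than 1 log2 unit in 7 of the 37 probesets, with 4 higher on replicate 2 and 3 on replicate 1. Among the tested probesets this held for 4 of the 20 family members and for 3.90% of all 14740.

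Pramel21 was the only tested member not yet described. It read 4.69 and 5.43 in DOX-7g, 4.39 and 3.89 in Dor-7g, and 4.01 and 4.10 in D4-act-7g, a difference of 1.00 ± 0.31 from D4-act-7g that was not called (limma, adjusted p = 0.311). Both DOX-7g arrays lay above the other 4.

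The 13 probesets that were dim on all 6 arrays were those of Pramel3, Pramel13, Pramel15, Pramel22, Pramel23, Pramel25, Pramel26, Pramel27, Pramel32, Pramel35, Pramel47 and Tdpoz3 and the second of Pramel34. Their values lay between 2.17 and 4.79. Their differences from D4-act-7g ran from -0.49 to 0.68 in DOX-7g and from -0.23 to 0.55 in Dor-7g, which between dim levels gives no measure of change. Nearest below the limit was Pramel32, at 4.79 on Dor-7g replicate 1, whose array median was 4.87. Nearest above it in this sense were Pramel14, Pramel30, Pramel51 and Tdpoz4, each at or above the median on 1 array.

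In the gene order of RefSeq assembly GRCm38.p6, used here for names and neighbours, the 35 genes fell into 9 groups when gaps of more than 10 protein-coding genes were taken to part them. The main group, on chromosome 4, ran from Pramel1 to Pramel13 and held 18 of the genes. In it, Pramel16 (7.11 ± 0.19 in DOX-7g against D4-act-7g) lies directly beside Pramel11 (0.49 ± 0.26), and Pramel20 (3.74 ± 0.21) beside Pramel21 (1.00 ± 0.31), all of them tested probesets. The difference in change between neighbours was not tested, and the genes on either side of Pramel31 have probesets that were dim on at least 5 arrays and give no measure to set beside it. Within that group 7 genes were dim throughout, and Pramel22 to Pramel27, 6 genes in a row, included 5 of those. Pramel17 and Pramel19, both higher in DOX-7g, formed a group of 2 elsewhere on chromosome 4. All 6 Tdpoz genes lie together on chromosome 3, with Tdpoz8 at one end and Tdpoz9 at the other. On chromosome 5, Pramel33 (-4.32 in Dor-7g against D4-act-7g) is next to Pramel34, whose brighter probeset differed by 0.17. The probesets that carry Pramel34 together with other symbols were 1.55 to 6.73 higher in DOX-7g than in D4-act-7g. Some of them also carry Pramel47, and which gene they measured is uncertain. The single-symbol probesets alone thus do not settle whether Pramel34 and Pramel47 changed in DOX-7g.

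**Figure D4:**
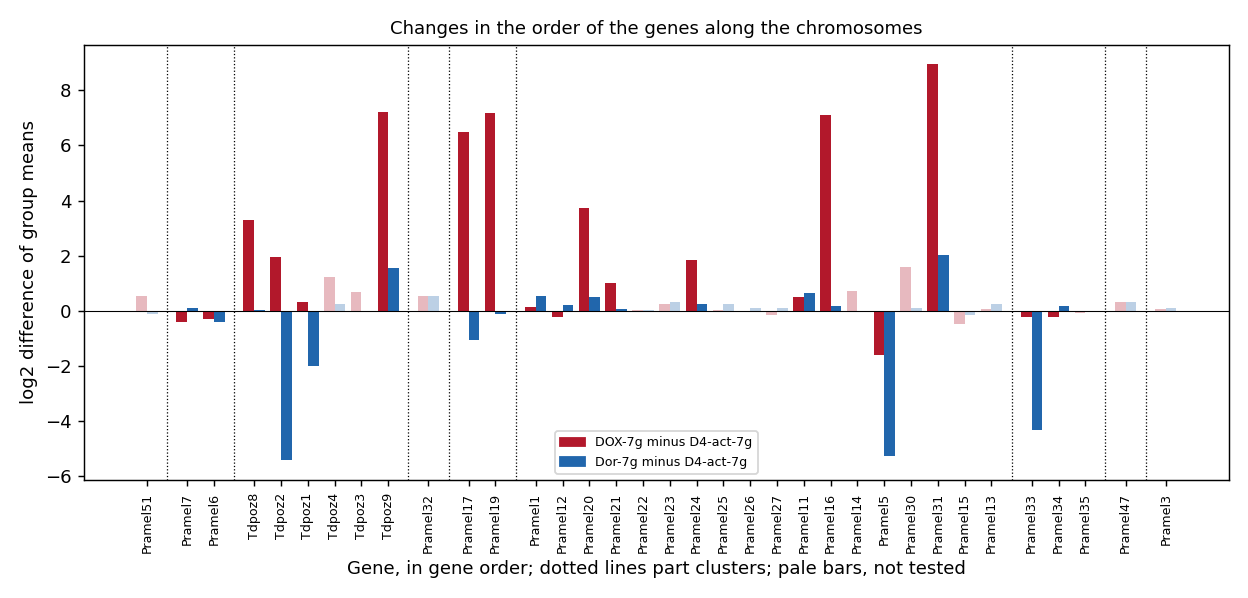
Difference of group means on the log2 scale, DOX-7g (red) and Dor-7g (blue) each minus D4-act-7g, for the 35 genes in gene order, with dotted lines between groups of neighbours pale bars for probesets that were not tested, and the brighter probeset shown for Pramel34 and Tdpoz2. Among tested neighbours, Pramel16 (7.11) stands beside Pramel11 (0.49) and Pramel20 (3.74) beside Pramel21 (1.00).

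Other genes of the early embryo's transient 2-cell-like state were counted in the same fit. Of 21 tested genes of that list that are not family members, 15 rose in DOX-7g against D4-act-7g with a median of 4.64, against 0.733% and -0.05 over all tested probesets. In Dor-7g against D4-act-7g none rose and Usp17lc fell (-1.71 ± 0.23, limma, adjusted p = 0.0437; dim or near the median in both groups), with a median of -0.02. This list was drawn up with results on these arrays known. Zscan4b, Zscan4e, Tcstv1, AF067061, Gm5662, Gm2016 and Spz1, all among the 15, were dim on every array outside DOX-7g. They passed the filter through the DOX-7g arrays alone. The count of 15 is therefore not independent of the filter and is no support by itself. The mean level of its 24 measured genes was 8.93 and 9.27 on the DOX-7g arrays, 4.51 to 4.79 in Dor-7g and 4.87 to 5.02 in D4-act-7g. Gm2016, among the 4 of the list with the smallest p, rose by 6.04 ± 0.18 (limma, adjusted p = 1.6e-04).

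The partners through which such adaptors act showed no calls, where 0.977%, 1.00% and 1.19% of all tested probesets were called in the 3 comparisons. With so small a share called, an absence of calls in short lists, here and below, says little about their genes. Of 14 tested genes for cullin ligase parts and the NEDD8 pathway, which switches cullins on, none passed in any comparison (limma), with 3, 4 and 3 at an unadjusted p below 0.05 in DOX-7g versus D4-act-7g, Dor-7g versus D4-act-7g and DOX-7g versus Dor-7g. Cul3, the scaffold that Spop-like proteins bind, read 6.28 and 5.98 in DOX-7g, 6.38 and 6.05 in Dor-7g, and in D4-act-7g 6.24 and 6.34. Lrr1, a leucine-rich repeat adaptor of cullin 2 with the smallest p of the list, differed by -1.80 ± 0.26 in Dor-7g against D4-act-7g (limma, adjusted p = 0.0517). Median differences over the list were -0.28, -0.16 and 0.00. Of 9 tested Spop and BTB relatives none passed in any comparison (limma), with 1, 1 and 0 at an unadjusted p below 0.05. Spop itself differed by 0.31 ± 0.20 in DOX-7g and 0.65 ± 0.20 in Dor-7g against D4-act-7g (limma, adjusted p = 0.703 and 0.232). Human PRAME represses retinoic acid signalling together with the Polycomb protein EZH2. Of 11 tested retinoic acid signalling genes none passed in any comparison (limma), with 1 in each at an unadjusted p below 0.05 and medians of 0.00, 0.14 and -0.14. Of the Polycomb genes Ezh2, Eed and Suz12 none passed either (limma), with 1, 2 and 1 at an unadjusted p below 0.05.

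Of 5 tested blood and immune genes, 2 rose in DOX-7g and 3 were not called. S100a9 and Ly6g, both neutrophil genes, rose in DOX-7g against D4-act-7g, by 5.00 ± 0.26 and 3.54 ± 0.25 (limma, adjusted p = 0.00111 and 0.00442), and S100a9 rose in Dor-7g by 2.21 ± 0.26 (limma, adjusted p = 0.0287). Of the other 3, S100a8 differed in DOX-7g by 7.30 ± 1.32 (limma, adjusted p = 0.0972), Lyz2 by 0.80 ± 0.34 (limma, adjusted p = 0.477) and the neutrophil granule gene Ngp by -0.05 ± 0.21 (limma, adjusted p = 0.983). The mean level of the 7 measured genes was 6.38 to 6.43 in DOX-7g, 4.43 to 4.84 in Dor-7g and 4.05 to 4.17 in D4-act-7g, with 1 of the 7 below the median on all 6 arrays. Ly6g was dim on every array outside DOX-7g and passed the filter through the DOX-7g arrays alone. The part of such cells in the family's changes was not tested. Of 8 tested uterine epithelium markers and 4 tested cumulus and granulosa markers none passed in any comparison (limma), with 2, 3 and 2, and with 1, 0 and 0, at an unadjusted p below 0.05.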

How the data were processed

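Expression was measured in 6 blastocyst samples, 2 per group, grouped by their titles. The deposited table holds 1 log2 value per probeset and array, for which the submitters' processing notes name RMA and Partek 6.6 as the authors' tools. A genome build was not given in the sources used here. Probesets were named through the platform annotation and looked up by Entrez identifier in RefSeq (GRCm38.p6), and all 37 members matched under the same symbol.

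Family members and gene lists were chosen with earlier results of these data known. Probesets with 1 symbol at or above the array median on at least 2 of 6 arrays were tested (14740 of 23521), without merging probesets of a gene. A limma 3.58.1 model (run in R 4.3.3) took all 6 arrays together, with a mean for each group, and eBayes (3 residual and 2.77 prior degrees of freedom). P-values were adjusted by Benjamini-Hochberg within each comparison, with a threshold of 0.05. The fit was tested on simulated data. The number of arrays limits the precision. Named were all called members, the brightest, those with several probesets and those next to the median. Of the lists, up to 4 genes with the smallest p were named. Uhrf1, Cul3, Spop, Oog2, Usp17lc, S100a8, Lyz2, Ngp, Eed and the other uncalled members were named after their values were seen. Promoters were aligned with Biopython 1.88. Alternatives covered filters, normalization, variance model, weights, probeset merging, a replicate block, arrays in the fit and leaving out each array.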

Additional observations from a re-analysis of the deposited data

How the results depend on the processing

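Called family probesets numbered 6 for DOX-7g versus D4-act-7g, 3 for Dor-7g versus D4-act-7g and 7 between DOX-7g and Dor-7g, and 5 probesets were called in DOX-7g only. Leaving out 1 array at a time gave 3 to 8, 2 to 4, 6 to 11 and 3 to 7. The extremes came without D4-act-7g replicate 2 (3 for DOX-7g versus D4-act-7g, with Pramel17, Tdpoz8 and Tdpoz9 lost) and without Dor-7g replicate 2 (11 for DOX-7g versus Dor-7g, with Pramel31, Pramel5, Tdpoz2 probeset 1 and Tdpoz9 gained). Whichever array was left out, Pramel16, Pramel19 and Pramel20 still rose in DOX-7g against D4-act-7g, Pramel33 and Tdpoz2 probeset 2 still fell in Dor-7g, and 6 of the 7 calls between DOX-7g and Dor-7g held. All of these also held under each other alternative run. Over all tested probesets, the share called between DOX-7g and Dor-7g also rose without Dor-7g replicate 2. The share called in DOX-7g against D4-act-7g also fell without D4-act-7g replicate 2. The family counts with 1 array left out thus moved with the calls over all probesets and are no result of the family by themselves. The least stable call was Tdpoz9 in DOX-7g against D4-act-7g, lost with a second quantile normalization (7.10; limma, adjusted p = 0.0802), with arrays centred on the median, with trend and robust options and without the filter. No named change that was called turned its direction. The groups did not overlap in any of these calls, so leaving out 1 array could not have turned them. The count of 13 dim probesets was 18 with the limit set on the mean over the 6 arrays. Whether replicate numbers pair the samples is not known. Deviations of same-numbered arrays correlated at -0.137 to -0.0117 across probesets, which cannot exclude a pairing. With the replicate block the counts were 5, 3 and 7, with Tdpoz9 (7.21; limma, adjusted p = 0.0974) the call lost. The share of all tested probesets called with that block is not given here.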

Other observations

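A further 45 probesets carry several gene symbols of which at least 1 is a Pramel or Tdpoz name, 42 of them with Pramel and 3 with Tdpoz names. They belong to no comparison above, since none can be given to 1 gene, and they held 37 distinct sets of values, because some probesets read exactly alike. Taking 1 log2 unit as a limit and no test, 24 of the 37 were more than 1 higher in DOX-7g than in D4-act-7g while Dor-7g stayed within 1, with DOX-7g differences of 1.55 to 6.73 and Dor-7g differences of -0.78 to 0.41. Another 9 were more than 1 lower in Dor-7g while DOX-7g stayed within 1, with Dor-7g differences of -5.66 to -1.12. Of all 41345 probesets, 1.90% and 2.60% met these limits. The value sets are not separate genes: the 24 carry 9 different sets of symbols, with 9 of the 24 under the same one, and the 9 carry 4. None moved past 1 in the same direction in both, and 4 moved past 1 in neither. The limits follow the 2 patterns already seen in single-symbol members, a high level in DOX-7g and a low level in Dor-7g. Several of these shared probesets carry symbols of those same members, such as Pramel16, Pramel20 and Pramel33. They may measure the same transcripts, so they are no separate support for the 2 patterns.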
